A study of Sus scrofa with 31 samples.

Results

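Genes that were present in alveolar macrophages and nearly absent from microglia were described in RNA-sequencing data from young pigs. The 72 genes were selected on the data themselves: each had at least 20 CPM (counts per 1e6, a gene's share of all counts of its sample) in each of the 3 alveolar macrophage samples and a mean under 0.5 CPM over the 24 microglia samples. Of 31907 genes in the table, 5850 had at least 20 CPM in each alveolar macrophage sample, and 89 of those met the microglia limit. A further 17 were then left out by name, among them ADGRE1, CD79B, IL7R and SLC11A1. Of the 72 members, 62 had a gene symbol, 6 were identified only by a human orthologue (5 immunoglobulin segments and 1 T cell receptor beta constant segment), and 4 had neither.

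The samples came from 15 male piglets in the fourth week of life, 1 per litter, from Large White × Landrace sows inseminated with Danish Duroc semen and kept in 2 types of housing. Microglia were sorted as CD11b-positive, CD45-low cells from the cerebellum, frontal cortex and hippocampus (n = 8 each), alveolar macrophages as F4/80-positive cells with low CD163 from lung lavage (n = 3), and whole hippocampus was sequenced unsorted (n = 4). The groups were defined by tissue and cell type, and no genotype or treatment is listed for them. The housing of each pig is not given, so whether housing differed between groups was not tested. The F4/80 antibody recognises the product of ADGRE1, which was not counted among the members. Each sample held 18438494 to 43477403 counts, at which 3 counts, the floor used here, equalled 0.0690 to 0.163 CPM.

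Alveolar macrophages live on the inner surface of the lung, where they take up surfactant and inhaled particles, while microglia are the resident macrophages of the brain parenchyma. T cells carry the T cell receptor with its CD3 chains, which signals through the kinases LCK and ZAP70, and B cells carry a surface immunoglobulin and mature into plasma cells that secrete it. Neither receptor is assembled by macrophages.

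The label of the gene set was only partly borne out by what its members are. Of the 72 members, 38 belonged to lymphocytes by the lists used here or by a rearranging receptor segment. None was among the alveolar macrophage markers. Of the 14 markers measured, 9 had at least 20 CPM in each alveolar macrophage sample but 0.980 to 2609 CPM on average in microglia. The rule left out ADGRE1, ADGRE3 and MARCO by name, as well as lymphocyte genes such as CD79B. ADGRE1 and MARCO were not on the marker list either, so these counts are partly set by the choice of names. The sort held transcripts of some macrophage markers and little of others. CD163, the haemoglobin scavenger receptor, whose surface level was itself part of the gate, had 399 ± 189.8 CPM (SD, n = 3) and MRC1, the mannose receptor, 259 ± 96.4 CPM. The sort lacked FABP4, a lipid carrier typical of human alveolar macrophages, which had no count in any of the 3 samples. The markers LYZ, PPARG, MSR1 and CHIT1 were also under 20 CPM in an alveolar macrophage sample. Their means were 13.9, 29.9, 8.12 and 0.342 CPM. CD68, a lysosomal macrophage protein, had 83.4 ± 74.2 CPM, against a mean of 174 CPM in microglia. Of the 15 microglia markers measured, 8 had at least 20 CPM in each alveolar macrophage sample and 7 did not. Among the 7 were P2RY12, TMEM119 and SALL1, with 2.63 ± 1.28, 6.28 ± 1.85 and 0.265 ± 0.0435 CPM in the alveolar macrophage samples. The 15 summed to 694, 932 and 1687 CPM in pigs 12821, 12829 and 12984, against a median of 10020 CPM in microglia. The set is therefore called here by its rule, as genes on in the lavage sort and off in microglia. In bulk samples, fewer cells of a type and less RNA per cell cannot be told apart.

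The promoters of 3 members are shown, because they head the T cell and myeloid lists by level in alveolar macrophages (CD3E and LGALS3) or had the highest level in brain tissue (BCL11B). Each runs from 270 bases before to 30 bases after the RefSeq gene start on Sscrofa11.1, 5′ to 3′ along the gene's own strand. Capitals mark 3 short motifs on either strand: the ETS core AGGAAG, the RUNX core TGTGGT and the GC box GGGCGG.
CD3E (chr9:45619460-45619759, plus strand): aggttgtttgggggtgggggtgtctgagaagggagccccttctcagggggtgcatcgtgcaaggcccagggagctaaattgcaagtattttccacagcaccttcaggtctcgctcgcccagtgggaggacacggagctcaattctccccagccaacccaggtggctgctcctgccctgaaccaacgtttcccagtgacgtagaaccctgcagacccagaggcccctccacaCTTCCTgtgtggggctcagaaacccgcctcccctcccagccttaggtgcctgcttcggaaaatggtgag
LGALS3 (chr1:184478369-184478668, plus strand): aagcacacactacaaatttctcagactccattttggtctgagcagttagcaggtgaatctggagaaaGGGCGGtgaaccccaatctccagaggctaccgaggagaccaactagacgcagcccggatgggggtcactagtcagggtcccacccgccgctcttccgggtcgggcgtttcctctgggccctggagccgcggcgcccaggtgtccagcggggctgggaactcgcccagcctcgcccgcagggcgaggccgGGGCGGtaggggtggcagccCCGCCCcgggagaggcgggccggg
BCL11B (chr7:120295708-120296007, minus strand): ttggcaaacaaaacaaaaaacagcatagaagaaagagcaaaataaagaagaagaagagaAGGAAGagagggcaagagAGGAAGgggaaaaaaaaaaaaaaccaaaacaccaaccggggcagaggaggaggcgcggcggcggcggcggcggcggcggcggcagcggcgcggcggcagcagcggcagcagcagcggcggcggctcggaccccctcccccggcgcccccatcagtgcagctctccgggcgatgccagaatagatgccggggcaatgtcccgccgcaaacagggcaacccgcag
The CD3E window held 1 ETS core, on the opposite strand. LGALS3 held 3 GC boxes, and BCL11B held 2 ETS cores. Over the 62 members with a RefSeq position, an ETS core stood in 21 (33.9%, against 29% of 20663 protein-coding promoters), a RUNX core in 18 (29% against 16.6%), a TATA box (TATAAA) in 11 (17.7% against 12%) and a GC box in 16 (25.8% against 48.3%). GC boxes stood in 6 of the 32 members of the lymphoid lists and in 10 of the other 30. Neighbouring motifs can share end letters, and a match describes letters only. Most members lay apart on the chromosomes. In 2 pairs the genes lay within 200 kb of each other: CD5 and CD6, neighbouring scavenger-receptor-type proteins of the T cell surface, were 66081 bases apart on chromosome 2, and CD72 and SIT1 were 15953 bases apart on chromosome 1.

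Members in alveolar macrophages ranged from a mean of 24.7 to 492 CPM (median 50.5 CPM), and together they made up 6466 CPM in pig 12821, 5805 in pig 12829 and 5462 in pig 12984. Per kilobase of exon, the scale on which genes can be compared, only the 62 members with an exon length had a value. The immunoglobulin segments, 1 of which had the highest mean of all members in CPM, had none. Among the 62, LGALS3 had the highest level with 368 CPM per kb, followed by CD3E (185), LGALS1 (174), MZB1 (162) and LAG3 (146). The median of the 62 was 15.3 CPM per kb. This order of means differed between pigs. Among the same 62, the highest level per kb was that of MZB1 in pig 12821 (345 CPM per kb), CD3E in pig 12829 (281) and LGALS3 in pig 12984 (807). The levels in alveolar macrophages and microglia chose the members and are given as a description only. The lowest alveolar macrophage value was above the highest microglia value for each of the 72 members, as the limits of the rule require. A microglia mean under its limit leaves no single library able to reach the alveolar macrophage minimum. The closest pair differed by a factor of 6.06.

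**Figure D1:**
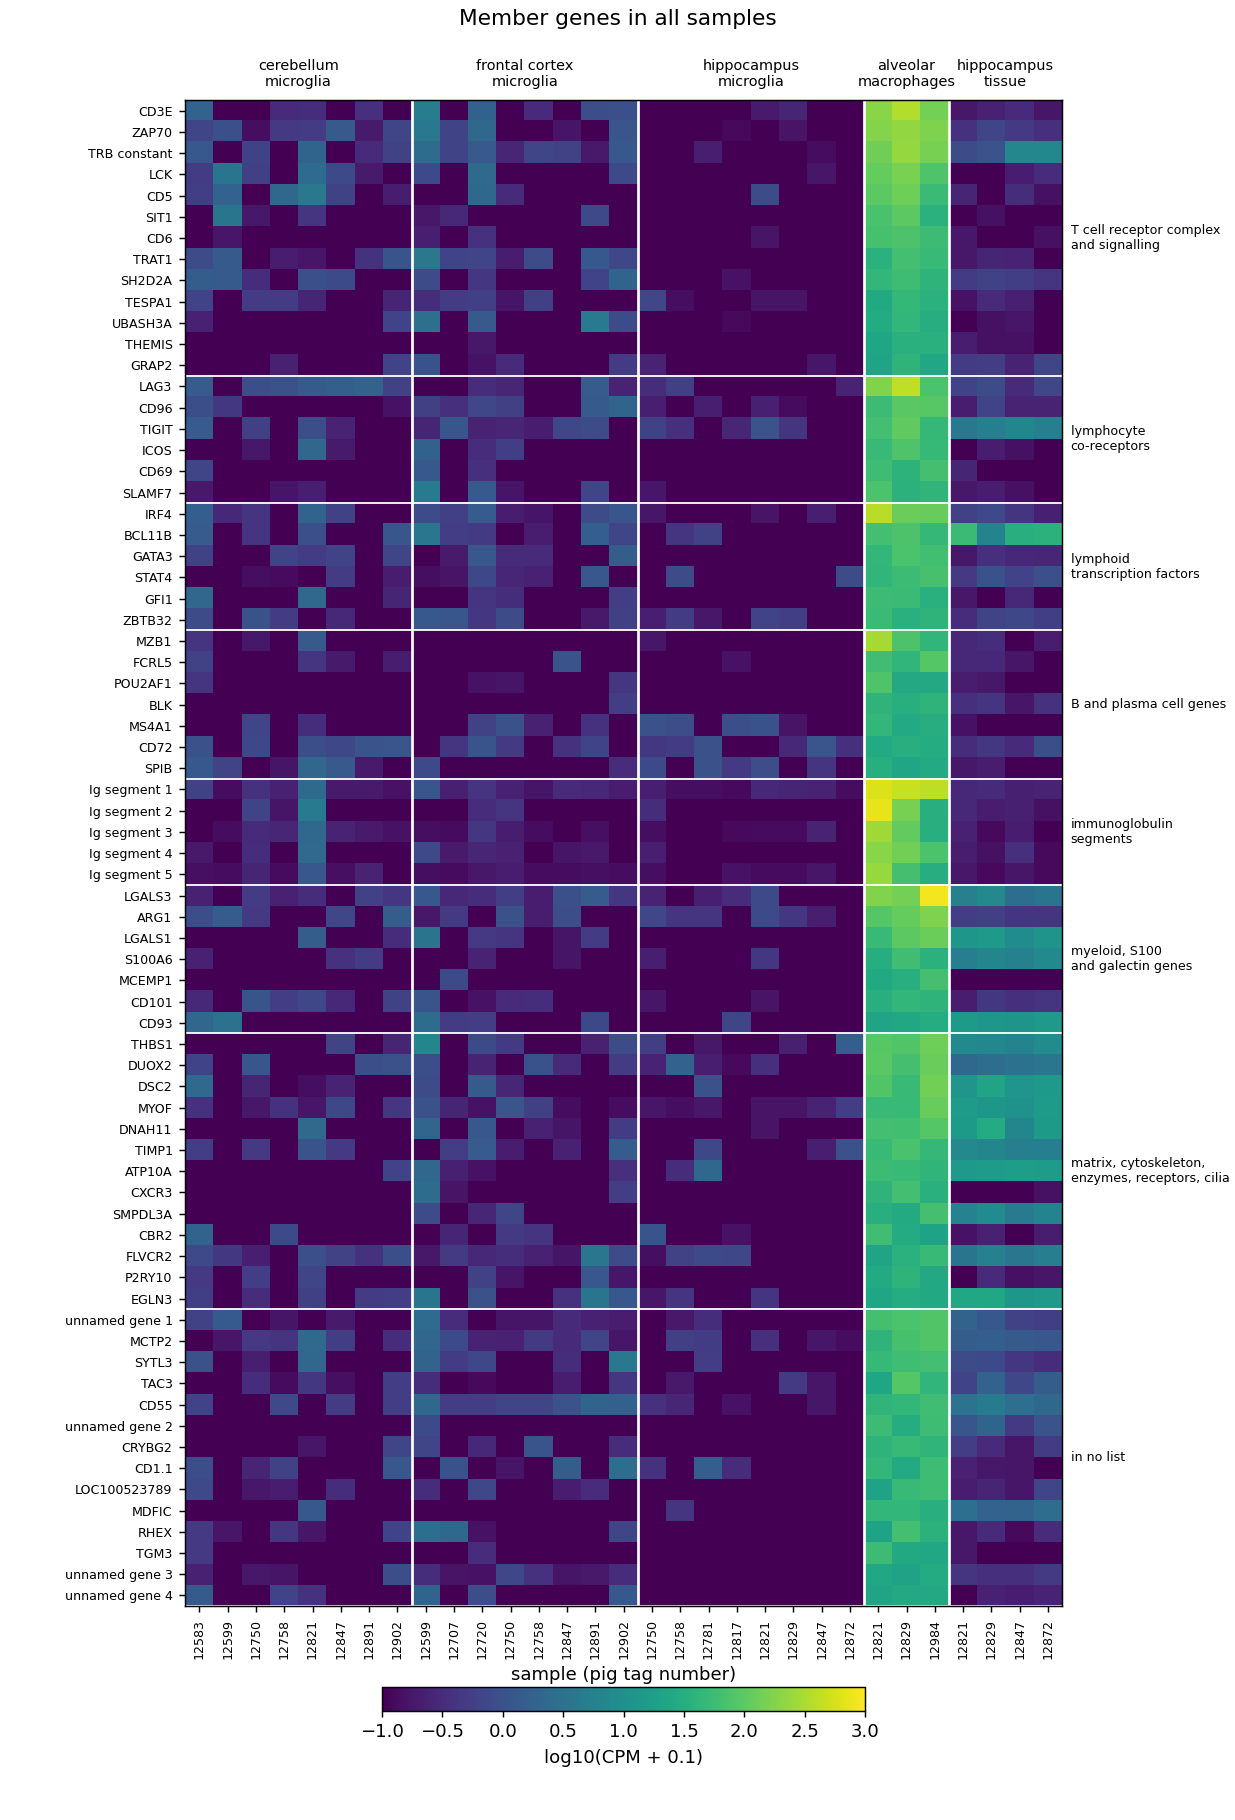
Levels of 71 of the 72 members (rows, grouped by gene list) in all 31 samples (columns, labelled by pig and grouped by tissue), as log10(CPM + 0.1). The 3 alveolar macrophage columns are high throughout by the rule, hippocampal microglia hold the least of the 3 microglia groups (summed median 5.81 CPM), and 22 rows have a mean of at least 1 CPM in hippocampal tissue.

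The T cell receptor complex and its signalling chain formed the largest group. Of 28 measured genes of this list, 12 were members, 13 had at least 20 CPM in each alveolar macrophage sample but a microglia mean from 0.529 to 546 CPM, and 3 were below 20 CPM in an alveolar macrophage sample. CD3E, a signalling chain of the receptor (ENSSSCG00000040140, chromosome 9, 45619730 to 45633972), had 192, 346 and 145 CPM in pigs 12821, 12829 and 12984, against 0 to 4.74 CPM in microglia (median 0). ZAP70, the kinase that binds the phosphorylated receptor (ENSSSCG00000008193, chromosome 3, 56515446 to 56541806), had 178, 226 and 166 CPM. LCK, the kinase that starts receptor signalling, had 113, 158 and 77.8 CPM. CD5, which dampens it, had 99.6, 129 and 54.1 CPM.

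All 12 of these members were highest in the sample of pig 12829, with a fold between the highest and lowest sample of 1.34 to 2.70 (median 1.77). The T cell receptor beta constant segment (ENSSSCG00000016475; 136, 229 and 149 CPM) followed the same order of highest sample. Of the 13 list genes with at least 20 CPM in each alveolar macrophage sample that were not members, such as CD3D (156, 179 and 112 CPM), 10 were also highest in pig 12829. Among all 5850 genes at that level, 33.2% were highest in pig 12829, 10.8% in pig 12821 and 56.0% in pig 12984. With 1 sample per pig these orders are a description.

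Co-stimulatory and inhibitory receptors of lymphocytes gave 6 members, 4 of them highest in pig 12829. LAG3, an inhibitory receptor of activated T and natural killer cells, had 177, 417 and 74.0 CPM in pigs 12821, 12829 and 12984, the widest range of the 6. CD96, TIGIT and ICOS, of which the first pair bind nectin-family ligands and ICOS is an inducible co-stimulator, had means of 80.2 ± 21.5, 71.7 ± 30.4 and 58.7 ± 18.1 CPM (SD, n = 3). SLAMF7, a receptor of cytotoxic and plasma cells, was highest in pig 12821 with 72.8 CPM, against 36.4 and 41.0 CPM.

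No natural killer or cytotoxic gene was a member. Of 18 measured, 8 had at least 20 CPM in each alveolar macrophage sample. Their microglia means were 0.569 to 115 CPM, so they missed the microglia limit. CTSW, a protease of cytotoxic lymphocytes, had 573 ± 179 CPM in alveolar macrophages and a median of 2.65 CPM (0 to 26.6) in microglia. PRF1, perforin, had 89.7 ± 11.5 CPM in alveolar macrophages, while the median of microglia was 110.4 CPM.

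B cell and plasma cell genes gave 8 members of 18 measured, and 6 of the 8 were highest in pig 12821. MZB1, a chaperone of immunoglobulin in plasma and marginal zone B cells (ENSSSCG00000029239), had 292, 76.0 and 42.99 CPM in pigs 12821, 12829 and 12984. POU2AF1, a B cell transcriptional coactivator, had 77.7, 25.9 and 26.0 CPM. FCRL5, an immunoglobulin-binding receptor, had 58.3, 43.6 and 86.9 CPM, and thus differed from MZB1 and POU2AF1: it was highest in pig 12984.

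The 5 immunoglobulin segments were all highest in pig 12821 and all lowest in pig 12984. Their sum was 2038 CPM in pig 12821, 919 in pig 12829 and 571 in pig 12984. The lambda constant-type segment (ENSSSCG00000038719) had 623, 453 and 401 CPM, and a kappa variable-type segment (ENSSSCG00000033114) had 709, 152 and 32.7 CPM, a range of 21.7-fold. These segments were chosen for mention after their values were seen. Immunoglobulin segments resemble each other, and how reads were divided between them was not tested. JCHAIN, the joining chain of secreted immunoglobulin, which was not a member because microglia averaged 11.3 CPM, had 1958, 528 and 439 CPM.

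Lymphoid transcription factors gave 8 members of 28 measured, 2 of them (SPIB and POU2AF1) also on the B cell list. IRF4, which acts in activated lymphocytes, plasma cells and some myeloid cells, had 372, 120 and 117 CPM in pigs 12821, 12829 and 12984. BCL11B and GATA3, factors of T cell development, had 62.6 ± 15.8 and 59.8 ± 15.0 CPM (SD, n = 3), and both were highest in pig 12829. STAT4, which transmits interleukin-12 signals, had 42.3, 55.0 and 69.6 CPM.

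Myeloid receptors and secreted proteins gave 5 members, of which 4 were highest in pig 12984. LGALS3, galectin-3, a sugar-binding protein of macrophages (ENSSSCG00000005055, chromosome 1, 184478639 to 184496155), had 172, 146 and 864 CPM in pigs 12821, 12829 and 12984. ARG1, an arginine-degrading enzyme of some macrophages, had 87.3, 113 and 171 CPM. MCEMP1, a mast cell and monocyte membrane protein, had 26.6, 32.0 and 65.6 CPM and counts in 1 of 24 microglia libraries. CD101, an inhibitory receptor, had 33.3, 44.4 and 39.6 CPM, and was highest in pig 12829, unlike the other 4.

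Among S100 proteins and galectins, LGALS1 (galectin-1) had 50.4, 96.5 and 125 CPM in pigs 12821, 12829 and 12984, and S100A6, a calcium-binding protein, had 31.2, 58.7 and 36.0 CPM. Of the 16 measured genes of this list, 12 were high in alveolar macrophages but not members. MYOF, a membrane-repair protein and the 1 member of 23 cytoskeletal genes measured, had 49.6, 52.1 and 118 CPM. THBS1, thrombospondin-1, had 91.6, 81.4 and 129 CPM. DSC2, a desmosomal cadherin, had 82.5, 50.1 and 142 CPM. TIMP1, a metalloproteinase inhibitor, had 48.8, 71.5 and 46.2 CPM.

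Enzymes and transporters gave 6 members. DUOX2, a hydrogen peroxide-producing oxidase, had 95.03, 66.5 and 121 CPM in pigs 12821, 12829 and 12984. ATP10A, a lipid flippase, and SMPDL3A, a phosphodiesterase, had 49.4 ± 6.75 and 42.4 ± 20.1 CPM (SD, n = 3). CBR2, a carbonyl reductase of the lung, had 59.2, 28.9 and 20.8 CPM, the reverse of the order that LGALS3 showed between the first and last of these pigs. The chemokine receptor CXCR3 and the lysophospholipid receptor P2RY10, both of lymphocytes, had 45.9 ± 14.9 and 31.3 ± 7.92 CPM and were highest in pig 12829.

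Genes of lung epithelium were measured as markers of other lavage cells. DUOX2 and DNAH11, a motor protein of cilia (64.7, 62.0 and 88.8 CPM), were the 2 members among 21 measured. Of the rest, 18 were under 20 CPM in an alveolar macrophage sample, and 1 (TPPP3) was above it in each but not a member. FOXJ1, which switches on ciliary genes, had 7.81, 0.81 and 3.40 CPM. The ciliary gene DNAH5 had 50.7, 0.20 and 28.1 CPM, so DNAH11 did not follow it in pig 12829. SFTPC, a surfactant protein, had 46.4 ± 44.1 CPM (SD, n = 3). The part of such cells in the members' levels was not tested.

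In no list stood 10 members with a symbol. MCTP2 and SYTL3, which bind membranes in response to calcium, had 63.6 ± 21.7 and 56.6 ± 8.03 CPM (SD, n = 3). TAC3, the precursor of neurokinin B, had 22.04, 88.8 and 42.2 CPM in pigs 12821, 12829 and 12984. CD55, which protects cells from complement, had 48.1 ± 9.17 CPM. CRYBG2 had 43.8 ± 5.73 CPM, and CD1.1, a lipid-presenting molecule, had 43.02 ± 14.8 CPM.

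Across the 72 members, 18 were highest in pig 12821, 31 in pig 12829 and 23 in pig 12984. The highest sample exceeded the lowest by over 2-fold in 27 members (37.5%), against 9.03% of the 5850 genes with at least 20 CPM in each alveolar macrophage sample. The median of this fold was 1.77 for the members and 1.38 for the 5850 genes. The summed level of the 38 lymphoid members was 4805, 3954 and 2528 CPM in pigs 12821, 12829 and 12984. That of the other 34, CXCR3 and P2RY10 among them, was 1661, 1851 and 2934 CPM. Thus the sample lowest in the one was highest in the other. CD163 and MRC1 were also highest in pig 12984, with 618 and 368 CPM.

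**Figure D2:**
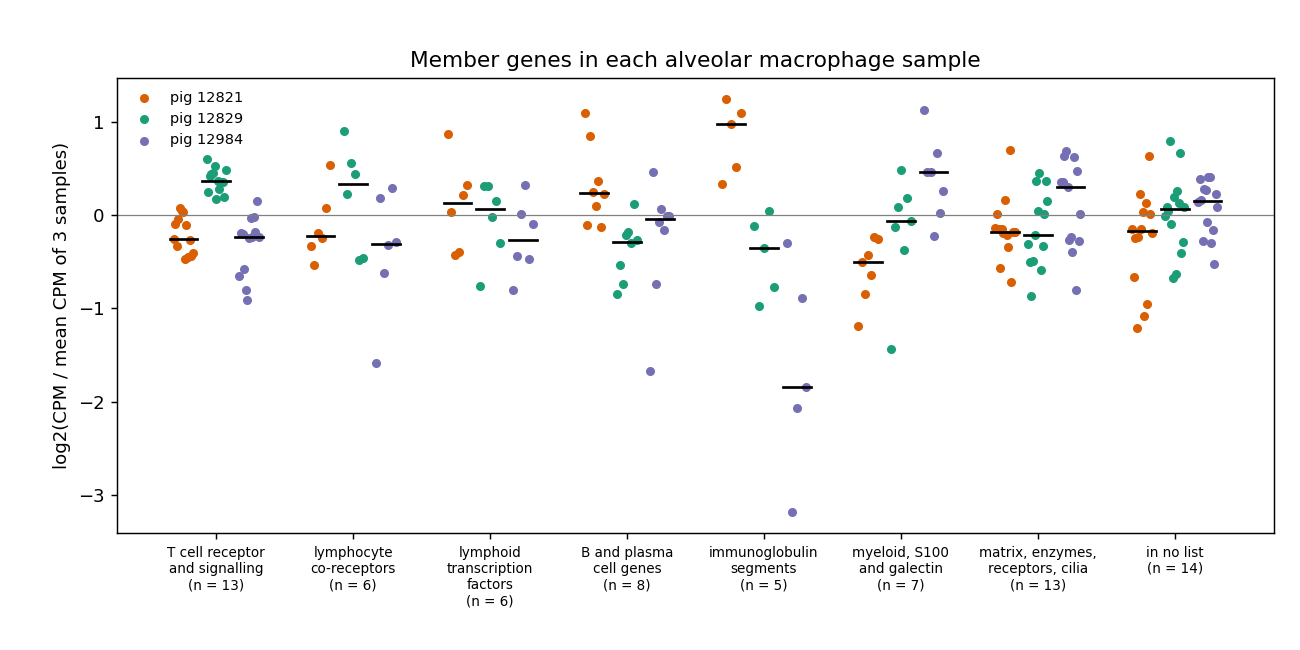
Level of each member in each of the 3 alveolar macrophage samples, as log2 of its CPM over its mean in the 3 samples (1 point per gene, black bar the median of the group, colours the pigs). T cell genes lie above 0 in pig 12829, immunoglobulin segments are highest in pig 12821, and the median of the myeloid, S100 and galectin genes is highest in pig 12984, although CD101 and S100A6 are highest in pig 12829.

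The members near the limits did not stand apart from the genes just beyond them. Just inside the alveolar macrophage limit lay LOC100523789 and CBR2, with lowest values of 20.3 and 20.8 CPM, and just outside lay LOC100520308 with 19.93 CPM. Just inside the microglia limit lay EGLN3 and ZAP70, with means of 0.492 and 0.493 CPM, and just outside lay ITPR3 and CD244 with 0.511 and 0.523 CPM. With a median in place of the mean, 114 genes met the rule, and 7 had under 0.5 CPM in every microglia sample (CD6, TAC3, POU2AF1, S100A6, BLK, TGM3 and THEMIS, named after their values were seen).

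Counts of the members left in microglia were few. Each of the 24 libraries held reads of 8 to 58 members (median 29.5), and the 4 libraries with the highest sums held 46.4% of the summed CPM. No member was without a count in all 24 libraries. In 43 members the median microglia library had none, and THEMIS, a T cell development protein, had 3 counts in 1 library. The summed level of the 72 members ranged from 2.49 to 78.8 CPM (median 11.2 CPM), or from 0.0421% to 1.33% of their mean sum in alveolar macrophages. The frontal cortex library of pig 12599 held 78.8 CPM and was the highest of the 24 for 20 members. The cerebellum library of pig 12821 held 50.2 CPM and was the highest for 14. The next libraries held 36.6 CPM (cerebellum, pig 12583) and 32.4 CPM (frontal cortex, pig 12720).

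These libraries differed in which members they held. In the frontal cortex library of pig 12599, the 12 T cell members summed to 17.8 CPM and the 5 immunoglobulin segments to 1.82 CPM. In the cerebellum library of pig 12821 they summed to 8.35 and 12.2 CPM, and no other microglia library exceeded 1.82 CPM for the immunoglobulin segments. The hippocampal microglia library of the same pig held 0.255 CPM of these segments. CD163 had 18.3 CPM in the frontal cortex library of pig 12599, 10.9 CPM in the cerebellum library of pig 12821 and 21.4 CPM in the frontal cortex library of pig 12891, against a median of 2.26 CPM over the 24. MRC1 had 0.829, 1.32 and 8.02 CPM in the same 3 libraries, against a median of 0.537 CPM. The part of blood or border cells in these counts was not tested.

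The highest single microglia values among members with a symbol were those of THBS1 (6.44 CPM) and CD3E (4.74 CPM), both in the frontal cortex library of pig 12599, and of UBASH3A, a phosphatase-like regulator of T cell receptor signalling (4.50 CPM, frontal cortex, pig 12891). Of the 72 members, 16 passed 3 CPM in a microglia library. The highest library belonged to the frontal cortex for 39 members, the cerebellum for 28 and the hippocampus for 5. The same count over all genes tested was not made.

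**Figure D3:**
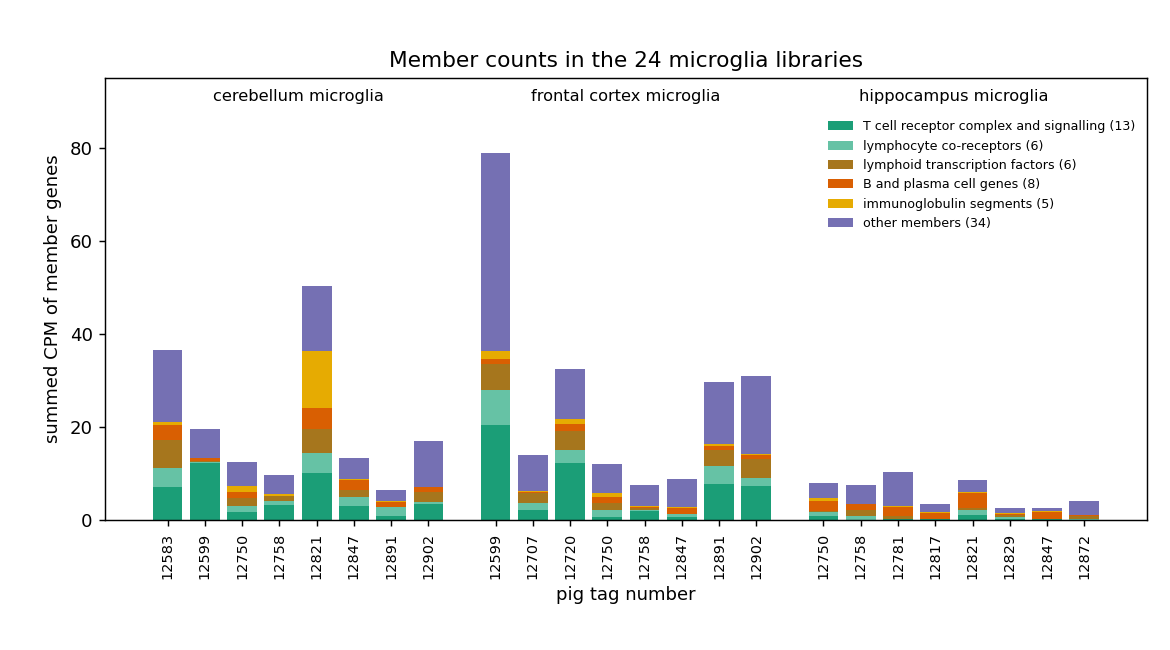
Summed CPM of the 72 members in each of the 24 microglia libraries, split by gene group (colours, number of genes in brackets) and ordered by region and pig. The 8 hippocampal libraries sum to 2.49 to 10.4 CPM, while single frontal cortex and cerebellum libraries reach 78.8 and 50.2 CPM.

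The second question was whether these traces differed between microglia of the 3 regions. Members were on average lowest in the hippocampus, where 54 of 72 had their lowest regional mean. The share of all genes tested with their lowest mean there was not computed, so this count does not set the members apart. The summed member level was 5.90 ± 3.12 CPM in the hippocampus, 20.7 ± 15.02 CPM in the cerebellum and 26.8 ± 23.4 CPM in the frontal cortex (SD, n = 8 each). The rule had used the mean over these same 24 libraries, though not the regions, and the members entered the test only through the alveolar macrophages, so the values tested were near the floor and the counts below are a description. In an edgeR quasi-likelihood F test over the regions, 4 members (5.56%) passed an adjusted p of 0.01, against 2.03% of all 11633 genes tested. All 4 act in lymphocytes: TRAT1, an adaptor of the T cell receptor complex, SLAMF7, UBASH3A and ZAP70. An unadjusted p under 0.05 was reached by 46 members, against 25.9% of all genes.

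TRAT1 had no count in the hippocampus, 0 to 1.26 CPM (median 0.196) in the cerebellum and 0 to 3.71 CPM (median 0.600) in the frontal cortex (edgeR adjusted p = 0.00644). ZAP70 had 0.0394 to 1.20 CPM (median 0.483) in the cerebellum, 0 to 3.91 CPM (median 0.315) in the frontal cortex and 0 to 0.0637 CPM in the hippocampus (edgeR adjusted p = 0.00788). UBASH3A had medians of 0, 0.366 and 0 CPM in cerebellum, frontal cortex and hippocampus and a highest value of 4.50 CPM in the frontal cortex (edgeR adjusted p = 0.00733). SLAMF7 had counts in 3, 4 and 1 of 8 libraries of the same regions and a highest value of 4.26 CPM (edgeR adjusted p = 0.00674). The ranges of cerebellum and frontal cortex overlapped in all 4 genes.

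These 4 calls were not stable. limma-voom, the fit on microglia samples alone and the fit with a fixed pig term as replicate block each called 0, with 7, 34 and 19 members at an unadjusted p under 0.05, while DESeq2 called 1 of the 4 and the random block 1 other member (14 and 7 members unadjusted). Without the frontal cortex library of pig 12599 1 member was called. Leaving out both this library and the cerebellum library of pig 12821 gave 2, with 36 members at an unadjusted p under 0.05. Without the hippocampal library of pig 12750, 12817, 12821, 12829, 12847 or 12872, 0 members were called, 1 without that of pig 12758, and 2 without the cerebellum library of pig 12583, 12750 or 12891.

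The third comparison set whole hippocampal tissue against hippocampal microglia, and gives the members' level in a sample that holds all cells of this region. Most were nearly absent there too: 47 of 72 had a tissue mean under 0.5 CPM, and 22 reached 1 CPM. The median tissue mean was 0.264 CPM for the members and 27.1 CPM for all genes tested. In the edgeR quasi-likelihood test, 35 members (48.6%) were higher in tissue at an adjusted p under 0.01 and over 4-fold, against 22.1% of all 11633 genes, and 0 were lower, against 11.7%. An unadjusted p under 0.05 in that direction was reached by 1 member in edgeR and in DESeq2, which also called 0. It was MS4A1 in edgeR, a B cell surface protein, named after its values were seen. In 12 of the 35, hippocampal microglia were at the 3-count floor and the tissue mean was under 4 times that floor. Without such genes 23 members (31.9%) remained, against 21.9% of all genes. The median log2 fold change of tissue over hippocampal microglia was 3.77 for the members and 0.08 for all genes tested. Since a low microglia level chose the members, their direction is partly set by the rule, and these counts are a description of where the members are found. Every tissue sample was above every hippocampal microglia sample in 33 members (45.8%), against 33.6% of all genes.

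The genes shared by the lavage sort and brain tissue were mostly outside the lymphoid groups. This split follows the lists: CXCR3 and P2RY10, both of lymphocytes, stood outside these groups, and neither was called in tissue. Of the 34 members outside the lymphoid groups, 20 were among the 23, and of the 38 lymphoid members 3 were. BCL11B, also a factor of hippocampal and cortical neurons (ENSSSCG00000002507, chromosome 7, 120205008 to 120295737), had 53.9, 6.33, 32.9 and 36.8 CPM in tissue of pigs 12821, 12829, 12847 and 12872, against 0 to 0.508 CPM in hippocampal microglia. Its log2 fold change was 8.65 (SE 1.44, edgeR adjusted p = 5.34e-06), and the sample of pig 12829 lay well below the other 3. Its level in alveolar macrophages was 1.93 times that in tissue.

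EGLN3, an oxygen-sensing prolyl hydroxylase, had 24.99, 25.2, 12.8 and 14.02 CPM in tissue of pigs 12821, 12829, 12847 and 12872 and 0 to 0.318 CPM in hippocampal microglia (log2 fold change 8.01, SE 1.49, edgeR adjusted p = 2.40e-05). DNAH11, known in brain from the ciliated lining of the ventricles, had 15.1, 28.8, 6.77 and 15.2 CPM. Hippocampal microglia were at the floor, so it was at least 154-fold higher in tissue (edgeR adjusted p = 3.96e-06). DSC2 had 11.9 to 21.3 CPM in tissue, and MYOF had 11.11 to 16.3 CPM. Hippocampal microglia did not exceed 0.898 and 0.426 CPM for these genes. Both rose in tissue. The log2 fold change was 7.33 (SE 1.503, edgeR adjusted p = 8.81e-05) for DSC2 and 7.14 (SE 0.99, edgeR adjusted p = 2.86e-07) for MYOF.

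CD93, a glycoprotein of endothelium and myeloid cells, had 15.2, 13.1, 11.5 and 14.4 CPM in tissue of pigs 12821, 12829, 12847 and 12872, against 0 to 0.575 CPM in hippocampal microglia (log2 fold change 7.56, SE 1.89, edgeR adjusted p = 0.000741). LGALS1 had 13.04, 14.5, 8.71 and 11.9 CPM in tissue and no count in hippocampal microglia, at least 112-fold higher (edgeR adjusted p = 2.12e-05). SMPDL3A had 4.29 to 8.43 CPM in tissue, at least 57.8-fold higher than in hippocampal microglia without a count (edgeR adjusted p = 4.08e-05). Tissue and microglia samples did not overlap for any of these 3 genes. In tissue, LGALS3 (4.82 ± 2.20 CPM), S100A6 (6.31 ± 1.32), THBS1 (7.41 ± 0.97), TIMP1 (6.08 ± 1.19) and ATP10A (15.8 ± 0.894) were also higher than in hippocampal microglia (SD, n = 4).

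Few lymphoid members had a tissue level. TIGIT had 3.87, 5.19, 6.71 and 5.09 CPM in tissue of pigs 12821, 12829, 12847 and 12872 against 0 to 0.955 CPM in hippocampal microglia (log2 fold change 4.47, SE 1.11, edgeR adjusted p = 0.000671). The T cell receptor beta constant segment, mentioned after its values were seen, had 0.709, 0.960, 7.02 and 7.38 CPM. CD3E stayed at 0.0741 to 0.204 CPM in the same tissue samples, and the 12 T cell members summed to 1.53 to 2.21 CPM. The 8 B cell members summed to 0.638 to 1.82 CPM. Of the 10 lymphoid members that passed the test, 7 had a tissue mean under 0.5 CPM, among them ZAP70 (0.375 CPM), IRF4 (0.399), GATA3 (0.173) and TRAT1 (0.0977), and no fold is given for these.

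**Figure D4:**
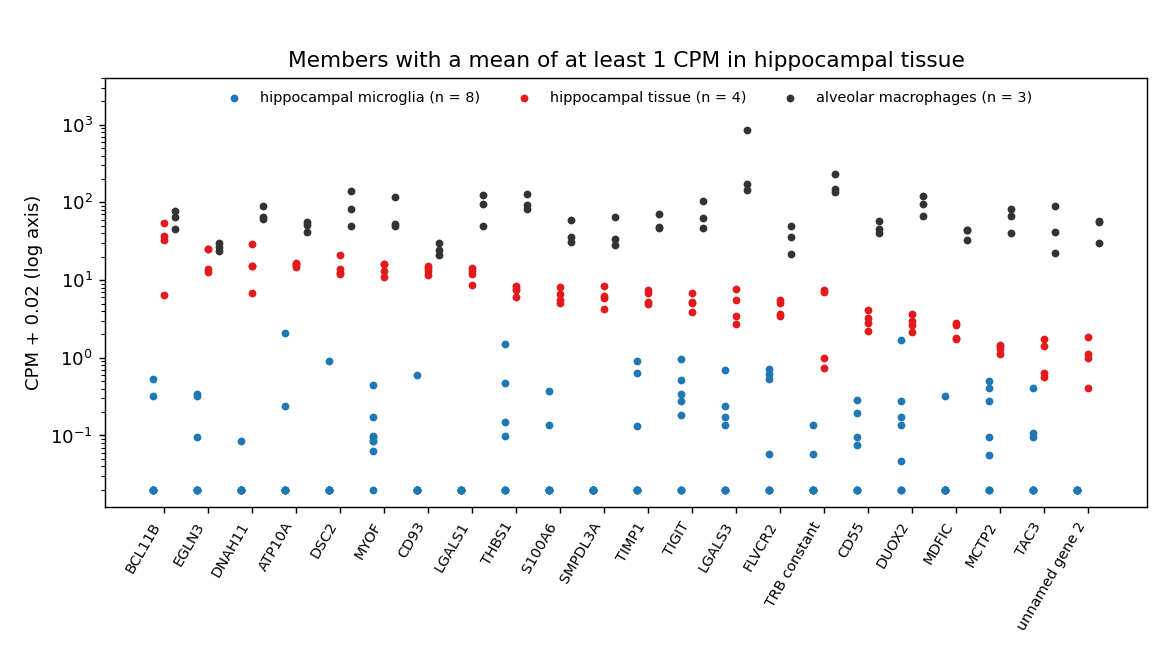
CPM (plus 0.02, log axis) of the 22 members with a mean of at least 1 CPM in hippocampal tissue, with 1 point per sample for hippocampal microglia (blue, n = 8), tissue (red, n = 4) and alveolar macrophages (black, n = 3). Tissue values lie above all hippocampal microglia values of the same gene, and BCL11B, EGLN3 and CD93 come closest to the alveolar macrophage level.

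In all, 4 pigs gave both hippocampal microglia and tissue. With the pig as a fixed replicate block, the paired test called 20 of the 35 members in tissue, and the random block called 32, of which 29 were among the 35. Among genes named here, IRF4 (adjusted p = 0.0516), GATA3 (0.0212), CD101 (0.0231), S100A6 (0.0126), THBS1 (0.0144), MCTP2 (0.0143), TAC3 (0.0266), CRYBG2 (0.0171) and LOC100523789 (0.0312) missed the threshold of 0.01 with the fixed block in edgeR. With the random block, IRF4 (adjusted p = 0.169), TRAT1 (0.155), LOC100523789 (0.0346) and GATA3 (0.01395) missed it in limma.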

How the data were processed

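RNA from sorted cells and tissue was sequenced as 50 bp paired-end reads from a stranded total RNA kit. After BBtools trimming and Hisat2 alignment to Sscrofa11.1, the authors counted reads by gene in StringTie. The deposited counts are raw and not normalized, with 1 column for each of 31 samples. These counts were used here as deposited. Symbols came from a gene name table (54 members) and the study's supplementary tables (8), and positions, exon lengths and promoters from RefSeq annotation release 106 of the same build, for 62 members.

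CPM for the selection used total counts. Genes entered the tests if every sample of some group was over 10 CPM (11633 genes), which all 72 members passed through the alveolar macrophages. edgeR 4.0.16 in R 4.3.3 (TMM, robust quasi-likelihood) was fitted with 1 model for the 5 groups, and p-values were adjusted by Benjamini-Hochberg over all tested genes. The thresholds were an adjusted p of 0.01 and, against tissue, over 4-fold. Alternatives used limma 3.58.1, DESeq2 1.42.0, other scalings and filters, a pig term, and each sample left out. Same tag numbers name the same pig. The deviations of hippocampal microglia and tissue from their group means correlated by 0.0119 to 0.0853 within a pig, and by -0.00938 on average between pigs. The random block used 1 within-pig correlation for all genes, which limma estimated at 0.205 over the 31 samples. The edgeR fit without a pig term was tested on simulated counts, which had the same spread setting for every gene.

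Genes named were, from each list, up to 4 members highest in alveolar macrophages, 6 members in no list, up to 8 called against tissue, up to 5 called between regions, the genes next to each limit and the 3 with the highest single microglia value. The members and lists were chosen with earlier results of these data known, so no count over them is independent evidence. Limits from 3 counts cover counting error only. Single genes and 1 promoter that the rule would name are not reported here.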

Additional observations from a re-analysis of the deposited data

Results flagged for a closer look

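The summed level of the 72 members in the frontal cortex library of pig 12599 was 78.8 CPM, set apart from the 7.57 to 32.4 CPM of the other frontal cortex libraries, and the sum over the 34 members outside the lymphoid groups was 42.4 CPM there against 4.66 to 16.8 CPM. These were the 2 of 34 groups of values in which a sample lay far from the rest. With 34 groups of values looked at, some flags can arise by chance, and how many was not tested. The 34 members are part of the 72, so the flags are not independent of each other. CD163 in that library was 18.3 CPM and MRC1 0.829 CPM, against medians of 2.26 and 0.537 CPM over the 24 microglia libraries. The part of cells that carry these markers in the result was not tested.

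ZAP70 (adjusted p = 0.00788), TRAT1 (0.00644), SLAMF7 (0.00674) and UBASH3A (0.00733) passed the edgeR test between microglia of the 3 regions, on values near the floor that the rule had used. None was called by limma-voom, on microglia alone or with the fixed pig term. For SLAMF7 the frontal cortex value of 4.26 CPM came from the same library of pig 12599, and its median over frontal cortex libraries was 0.0341 CPM.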

How the results depend on the processing

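The number of genes that met the rule, 72, was 81 with TMM or RLE library sizes, 71 of them shared, and 69 to 90 with any 1 sample left out. It moved to 140 and 32 at 10 and 40 CPM in alveolar macrophages, to 111 and 39 at microglia means of 1 and 0.25 CPM, to 114 with the microglia median and to 7 with the limit in every microglia sample. Leaving out both microglia libraries with the most member counts, an alternative chosen after seeing the data, gave 90 with all 72 among them. The 35 calls in tissue became 43 at an adjusted p under 0.05, 32 to 35 in the other fits, 20 with the fixed replicate block, and 30 to 34 with 1 sample left out. The cause was not tested. The 4 calls between regions became 20 at an adjusted p under 0.05, 0 in limma-voom, on microglia alone and with the fixed block, 1 in DESeq2 and with the random block, 2 without both libraries, and 0 to 5 with 1 sample left out. Of the changes of single named genes against tissue, 879 kept their call and direction, 51 lost it, 6 gained it and 9 reversed, none of them called at first. CBR2 (-0.64 on the log2 scale) became 1.02 in limma-voom, 3.93 and 1.23 with the fixed and random block, and 2.67 without the hippocampal microglia of pig 12750. CD1.1 (-1.43) became 0.27, 2.86 and 0.67 in the same 3 fits and 0.19 without those of pig 12781, and CD5 (0.39) became -0.27 without the tissue of pig 12847. With 1 sample left out these spanned -1.05 to 2.67 (CBR2), -1.88 to 0.19 (CD1.1) and -0.27 to 4.99 (CD5). At 3 counts per library, levels under 0.0690 to 0.163 CPM cannot be told from 0.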
